A study of Mus musculus with 18 samples.

Results

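The genes described here encode the extracellular matrix of the liver and the proteins by which hepatic stellate cells are recognised. The set held 41 listed genes, each matched by the gene symbol of the array's annotation. Where several probe sets measured a gene, the one with the highest mean log2 signal over the 18 arrays stood for it. Of the 41 genes, 40 had a probe set and 36 passed the filter on low signal, among 11018 genes tested in all. Col15a1, Mfap4, Lox and Timp1 lay under that filter, and Fbn1 was not analysed here.

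The samples were livers of offspring of DUK, an outbred mouse line, whose dams ate isoenergetic diets that differed in protein content. HP pregnancy offspring had dams fed 40% protein by weight (high protein, HP) in pregnancy and 20% in lactation. HP lactation offspring had dams fed 20% in pregnancy and 40% in lactation, and control offspring had dams fed 20% throughout. Livers were taken at postnatal day 150 and at day 21, which gave 6 groups of 3 arrays. Each array carried labelled RNA from a pool of several livers, and the labels give differing numbers of animals per pool. It is not stated whether pools of one group shared animals, so every p-value and standard error here describes the spread between pools. The comparisons asked how the matrix and stellate cell transcripts differed between the ages and between the maternal diets.

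Stellate cells lie between the hepatocytes and the sinusoidal endothelium, store retinyl esters in lipid droplets, and are the main makers of fibrillar collagen in the liver. On activation they lose these stores, turn on alpha smooth muscle actin and deposit collagen, a response that platelet-derived growth factor and transforming growth factor beta drive. The collagen chains are hydroxylated and folded in the endoplasmic reticulum, trimmed outside the cell and cross-linked by lysyl oxidases, and matrix metalloproteinases and their tissue inhibitors govern the turnover. Around the sinusoids the matrix is loose, with collagen IV, laminin, fibronectin and proteoglycans, and the fibrillar collagens lie mainly around the portal tracts and central veins.

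Signals were deposited on one linear scale, with nearly the same trimmed mean on every array. The 3'/5' ratios of the control probe sets, which rise when RNA is degraded or incompletely copied, separated the ages without overlap. The Actb ratio was 4.06 to 6.5 at day 150 and 1.96 to 3.15 at day 21, and the Gapdh ratio was 1.30 to 1.80 at day 150 and 0.821 to 0.993 at day 21. Age and this measure of RNA quality therefore cannot be told apart. HP lactation day 150 replicate 4 had an Xist signal of 11644 and control day 21 replicate 2 one of 7343, against at most 93 on the other arrays (Xist is made from the silenced X of female cells). Without both of these arrays 23, 26 and 22 members differed between ages in HP pregnancy, HP lactation and control, against 23, 26 and 24 with them.

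Stellate cell transcripts were measurable in every group. Lrat, the enzyme that esterifies retinol for storage, ranged from 409 to 962 over the 18 arrays, and Reln, which stellate cells secrete in the liver, ranged from 2909.5 to 5139.6. Of 15 further stellate cell markers with a probe set, 13 passed the filter, with Cxcl12, Colec11 and Rgs5 at the highest mean signals (4808, 4408 and 4407). Gfap, often used to mark stellate cells, and Hhip lay under the filter level of 57.5. Signals of different probe sets depend on their probes, so rankings and sums of signals over probe sets do not measure amounts of transcript. In whole liver, fewer cells of a type and less RNA per cell cannot be told apart.

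Most of the matrix genes were lower at day 150 than at day 21 in all 3 diet groups. At day 150 against day 21, 22 of 36 members fell and 1 rose (Timp3) in HP pregnancy offspring, where 11.5% of all genes fell and 12.1% rose. In HP lactation offspring 26 fell and 0 rose, against 11.6% and 14.1% of all genes, and in control offspring 24 fell and 0 rose, against 8.08% and 9.7%. The threshold was an adjusted p under 0.05 in limma with Benjamini-Hochberg adjustment over all genes. Col1a1 and Loxl1 had means under the filter level in all 3 day 150 groups, so they passed the filter only through day 21. Col1a1 is counted as a fall in control and Loxl1 in HP lactation, the direction that this filter favours. Median log2 changes of the 36 members were -0.85 in HP pregnancy, -1.16 in HP lactation and -1.01 in control, beside 0.022, 0.025 and 0.023 over all genes. Log2 changes listed together stand for HP pregnancy, HP lactation and control, in that order.

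The 3 comparisons between ages used different arrays but shared the same estimate of each gene's spread and the same split of 3'/5' ratios. They are therefore not independent repeats. In all of them together, 20 of 36 members fell each time, against 4.94% of all genes, and 33 had negative changes each time, against 31.1%. A further 4 (Lamb1, Lamc1, Acta2 and Tagln) fell in 2 of the 3 diet groups and 4 (Col1a1, Col6a1, Col14a1 and Loxl1) in 1. The remaining 8 were Timp3 and the 7 that passed the test in none: Col6a2, Fn1, Timp2, Des, Vim, Lrat and Reln. All 3 day 150 arrays lay below all 3 day 21 arrays in 30 members in HP pregnancy, 27 in HP lactation and 26 in control, against 20.7%, 17.2% and 16.6% of all genes. The members were chosen with earlier results of these data known. Set beside the shares of all genes, these counts and those above are therefore descriptive.

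The calls rested on a fit without the 3'/5' ratios. With both ratios as covariates, 0 members were called in HP pregnancy, 0 in HP lactation and 1 (Pdgfra) in control, and 3, 19 and 59 of all genes, while the members' medians were -0.79, -1.14 and -0.88. Of the 73 changes called, 55 stayed past the threshold when each of the 6 arrays of their own comparison was left out in turn, and none turned its sign in any alternative run. The covariates moved 18 of the 73 by over 1.5 times in fold. The losses are given with the genes.

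**Figure D1:**
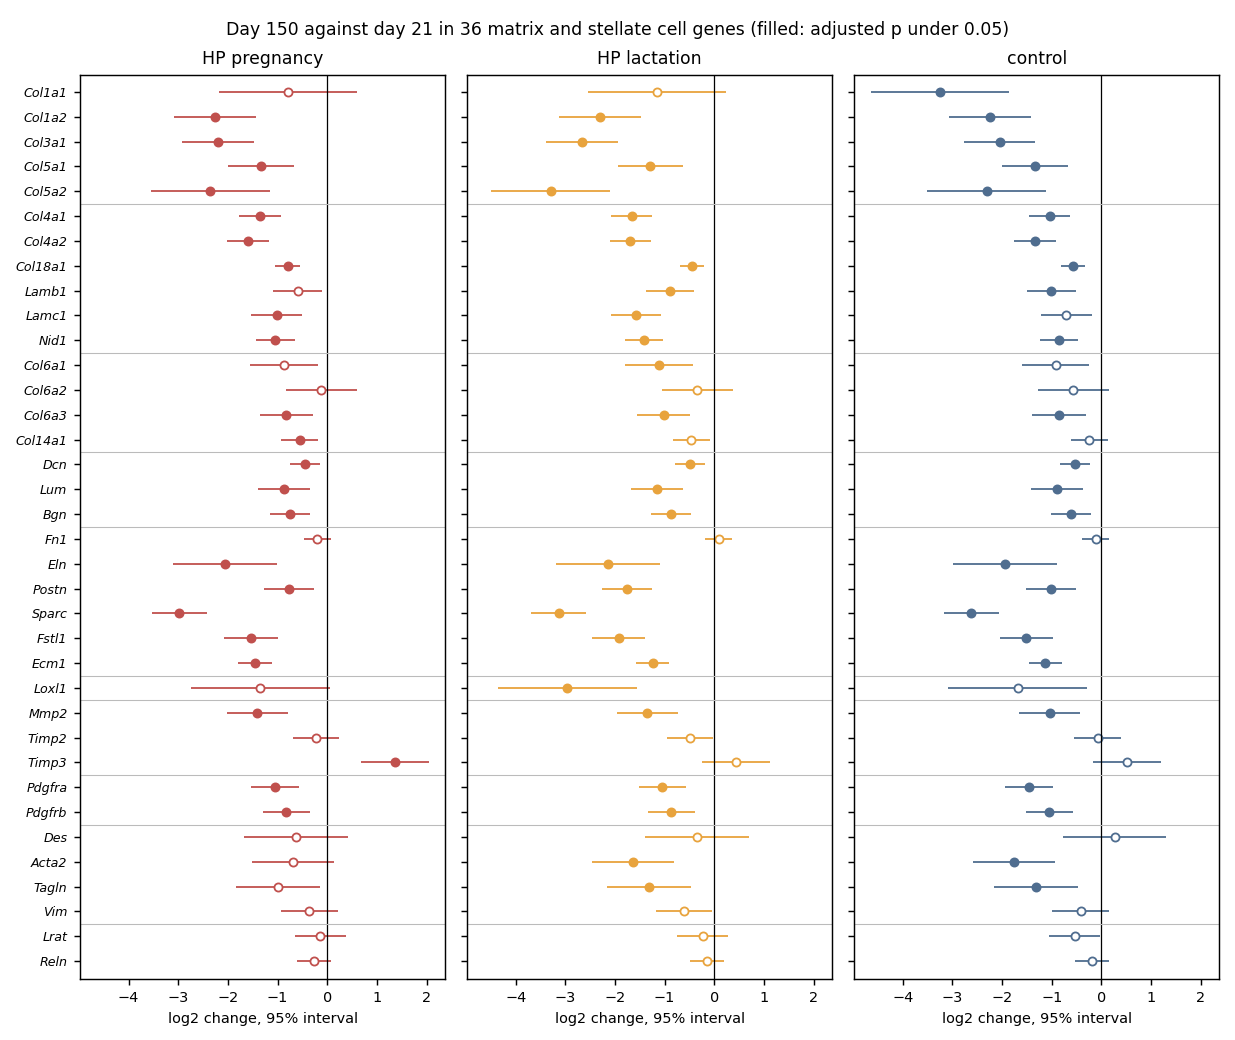
Log2 change between day 150 and day 21 (x axis, points with 95% intervals) of the 36 members, in rows grouped by role, for HP pregnancy, HP lactation and control offspring. Filled points passed an adjusted p of 0.05 in limma. In each panel nearly all points lie left of 0, with Sparc, Col3a1, Col1a2 and Col5a2 far left, and Timp3 right of 0.

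Among the fibrillar collagens, which form the tensile fibres of connective tissue, the chains of types I, III and V were lower at day 150. Col3a1, the chain of type III collagen, had signals of 998, 974 and 992 at day 150 and 3919, 5265 and 4536 at day 21 in HP pregnancy offspring. In HP lactation offspring its signals were 899, 657 and 594 at day 150 and 6234, 3156 and 4561 at day 21. Control offspring had 866, 952 and 2642 at day 150 and 8276, 5020.0 and 3702 at day 21. The day 150 arrays were low in each diet group and did not overlap the day 21 arrays, with 1 control array at day 150 (replicate 3) well above the other two. Col3a1 fell 4.6-fold in HP pregnancy (log2 change -2.20, SE 0.34, adjusted p = 0.00018), 6.35-fold in HP lactation (log2 change -2.67, SE 0.34, adjusted p = 2e-05) and 4.13-fold in control (log2 change -2.05, SE 0.34, adjusted p = 0.00051).

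Col1a2, a chain of type I collagen, had signals of 290.2, 318 and 188 at day 150 and 1108, 1324 and 1312 at day 21 in HP pregnancy offspring. The HP lactation arrays gave 416, 332 and 310.1 at day 150 and 3276, 1103 and 1448 at day 21. The control arrays gave 218, 293 and 695 at day 150 and 2605, 1571 and 1137 at day 21. Again every day 150 array lay below every day 21 array of its diet group, and control day 150 replicate 3 stood highest of its group. The falls were 4.8-fold in HP pregnancy (log2 change -2.26, SE 0.39, adjusted p = 0.00051), 4.96-fold in HP lactation (log2 change -2.31, SE 0.39, adjusted p = 0.00036) and 4.72-fold in control (log2 change -2.24, SE 0.39, adjusted p = 0.0008). Col1a1, the partner chain of Col1a2, had signals of 56.4, 36.8 and 44.8 at day 150 and 57, 88 and 97.7 at day 21 in HP pregnancy. After HP lactation it had 64.5, 66.3 and 41.4 at day 150 and 284, 59.6 and 117 at day 21. In control offspring they were 3.8, 26.1 and 37.4 at day 150 and 196, 145 and 113 at day 21. The groups of Col1a1 did not overlap in control or HP pregnancy but did in HP lactation, and 7 of the 9 values at day 150 lay under the filter level. Col1a1 fell in control (log2 change -3.25, SE 0.66, adjusted p = 0.0026), where the array at 3.8 (replicate 1) weighed on the size: the log2 change was -2.24 without it, -3.89 without replicate 3, and -1.48 with 50 added to every signal. The means of all 3 day 150 groups were under the filter level. The Col1a1 changes were -0.80 in HP pregnancy (adjusted p = 0.42) and -1.16 in HP lactation (adjusted p = 0.21).

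Type V collagen starts and limits the growth of type I fibrils. Its chain Col5a2 had signals of 112, 84.6 and 27.5 at day 150 and 289, 344 and 349.5 at day 21 in HP pregnancy. HP lactation offspring had 12.2, 60 and 77.4 at day 150 and 544, 285 and 346 at day 21. On the control arrays it read 55, 46 and 102 at day 150 and 482, 247 and 264 at day 21. The ages did not overlap, and 4 of the 9 values at day 150 lay under the filter level. Col5a2 fell in each diet group, with log2 changes of -2.35 in HP pregnancy, -3.29 in HP lactation and -2.31 in control (adjusted p = 0.0062, 0.00044 and 0.0097). The sizes rest on these weak signals: without the lowest day 150 array they were -1.75 in HP pregnancy (without replicate 3) and -2.47 in HP lactation (without replicate 4). With 50 added to every signal they were -1.66, -2.17 and -1.67. Col5a1 fell by a similar amount in all 3 (-1.33, -1.29 and -1.34). Col3a1 and Col5a2 are neighbours on chromosome 1, 24.6 kb apart with no gene between them in the RefSeq annotation.

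**Figure D2:**
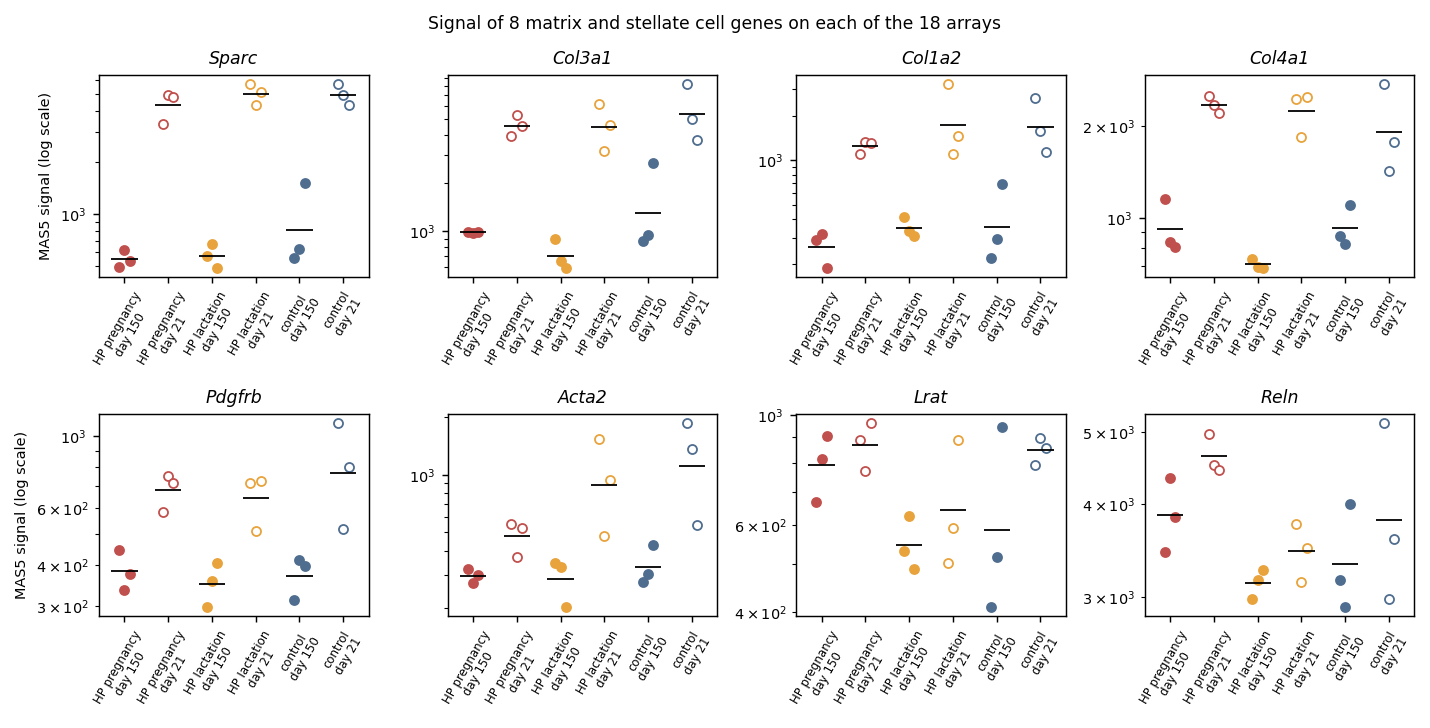
MAS5 signal (log scale) of 8 members on each of the 18 arrays, as points for HP pregnancy, HP lactation and control offspring, filled at day 150 and open at day 21, with the geometric mean of each group as a bar. Sparc, Col3a1, Col1a2 and Col4a1 separate the ages in every diet group, while Lrat and Reln overlap between ages in HP lactation and control.

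The start regions of 3 members that fell in every diet group and of Reln, which fell in none, are shown so that genes with unlike age changes can be read side by side. Each is the 250 bases before the transcription start annotated in RefSeq (GRCm38.p6, 5' to 3' on the gene's strand), in lower case with motif matches in capitals. The capitals mark TATAAA, the core letters of the TATA box, or CCAAT, those of the box of that name, or GGGCGG, those of the GC box bound by Sp1. Sparc lies at chr11:55420081-55420330 (minus strand), Col1a2 at chr6:4505368-4505617 (plus strand), Col3a1 at chr1:45311288-45311537 (plus strand) and Reln at chr5:22344706-22344955 (minus strand).
Sparc: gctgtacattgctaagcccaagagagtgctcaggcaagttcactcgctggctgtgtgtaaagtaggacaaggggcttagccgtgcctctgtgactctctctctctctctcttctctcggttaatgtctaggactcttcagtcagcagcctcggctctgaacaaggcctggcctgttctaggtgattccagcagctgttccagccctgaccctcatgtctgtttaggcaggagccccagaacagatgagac
Col1a2: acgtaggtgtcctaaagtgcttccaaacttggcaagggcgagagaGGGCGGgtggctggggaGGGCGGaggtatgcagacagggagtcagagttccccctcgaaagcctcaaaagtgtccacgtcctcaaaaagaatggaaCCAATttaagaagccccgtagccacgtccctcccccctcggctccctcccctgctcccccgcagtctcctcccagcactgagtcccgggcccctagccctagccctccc
Col3a1: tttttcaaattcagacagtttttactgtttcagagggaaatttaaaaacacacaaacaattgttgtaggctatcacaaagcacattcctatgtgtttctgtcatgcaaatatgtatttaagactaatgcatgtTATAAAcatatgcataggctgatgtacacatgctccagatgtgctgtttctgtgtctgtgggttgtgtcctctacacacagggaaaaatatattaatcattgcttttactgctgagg
Reln: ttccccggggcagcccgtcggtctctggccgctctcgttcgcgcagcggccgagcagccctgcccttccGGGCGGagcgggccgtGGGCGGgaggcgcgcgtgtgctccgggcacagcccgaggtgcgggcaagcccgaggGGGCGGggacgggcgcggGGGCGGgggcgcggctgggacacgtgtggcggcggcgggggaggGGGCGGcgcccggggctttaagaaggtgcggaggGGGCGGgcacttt

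The window of Col1a2 held CCAAT from 109 to 105 bases before the start and GGGCGG from 205 to 200 and from 188 to 183. Col3a1 held TATAAA from 117 to 112 bases before the start, Sparc held none of the motifs searched, and Reln held GGGCGG 6 times. GC content was 54% for Sparc, 62% for Col1a2, 35.2% for Col3a1 and 80% for Reln. Of the 40 members with a probe set, 26 matched the RefSeq promoter table, with 29 windows. Both strands were searched, and no match overlapped one of another motif. GGGCGG occurred in 58.6% of the members' windows and in 32.7% of all 32851 windows of the same length, CCAAT in 34.5% and 33.8%, TATAAA in 13.8% and 12.4%, and TGANTCA, the letters of an AP-1 site, in 6.9% and 6.75%. The CArG box, bound by serum response factor, was in none of the members' windows and in 1.47% of all. These matches describe letters only and were not tested against the age change.

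Basement membrane genes fell as well: 5 of the 6 tested in HP pregnancy, 6 in HP lactation and 5 in control, where 11.5%, 11.6% and 8.08% of all genes fell, and 4 of the 6 fell in all 3. Col4a1, a main chain of the type IV collagen network, had signals of 1159.7, 837 and 803 at day 150 and 2515, 2339 and 2208 at day 21 in HP pregnancy offspring. Under HP lactation the values were 737, 695 and 689 at day 150 and 2446, 1845 and 2486 at day 21. Control signals were 874, 823 and 1105 at day 150 and 2750.5, 1427 and 1779.8 at day 21. The ages did not overlap in any diet group, and the HP lactation arrays of day 150 lay closest together. Col4a1 fell 2.55-fold in HP pregnancy (log2 change -1.35, SE 0.20, adjusted p = 0.00011), 3.17-fold in HP lactation (log2 change -1.66, SE 0.20, adjusted p = 8.8e-06) and 2.06-fold in control (log2 change -1.04, SE 0.20, adjusted p = 0.0015). Its partner chain Col4a2 fell too, with log2 changes of -1.60 in HP pregnancy, -1.69 in HP lactation and -1.34 in control. Col4a1 and Col4a2 start head to head on chromosome 8, and their annotated spans in RefSeq overlap there. Nid1, nidogen, which links laminin to type IV collagen, fell in all 3 diet groups (-1.05, -1.42 and -0.85).

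The laminin chains gave less even results. Lamc1 fell in HP pregnancy (-1.02, adjusted p = 0.0054) and HP lactation (-1.58, adjusted p = 0.00013) and had a change of -0.71 in control (adjusted p = 0.052). Lamb1 fell in HP lactation (-0.89, adjusted p = 0.0089) and control (-1.01, adjusted p = 0.0061) and had -0.60 in HP pregnancy (adjusted p = 0.07). Col18a1, the collagen that carries endostatin and that hepatocytes also make, had signals of 4259, 4254 and 4021 at day 150 and 6477, 7778 and 7638 at day 21 in HP pregnancy. In HP lactation offspring its signals were 5439, 4383 and 6023 at day 150 and 7549, 7087 and 6918 at day 21. Control offspring had 5514, 5295 and 5515 at day 150 and 8900.3, 7707 and 7715 at day 21. Each day 150 array lay below the day 21 arrays of its diet. Col18a1 fell by small and closely measured amounts, 1.74-fold in HP pregnancy (log2 change -0.80, SE 0.12, adjusted p = 9.4e-05), 1.37-fold in HP lactation (log2 change -0.46, SE 0.12, adjusted p = 0.0075) and 1.49-fold in control (log2 change -0.57, SE 0.12, adjusted p = 0.0024). The HP lactation call was lost without HP lactation day 150 replicate 5 (adjusted p = 0.0505).

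Type VI collagen forms beaded filaments near cells, and type XIV binds the surface of fibrils. Col6a3 fell in all 3 diet groups, with log2 changes of -0.82 in HP pregnancy, -1.02 in HP lactation and -0.85 in control (adjusted p = 0.026, 0.0072 and 0.028). Those falls were lost without HP pregnancy day 21 replicate 1, 2 or 3 or day 150 replicate 1 or 3 (adjusted p = 0.053 to 0.095) and without control day 21 replicate 1 or 3 or day 150 replicate 1 or 2 (adjusted p = 0.056 to 0.14). Col6a1 fell in HP lactation (log2 change -1.11, SE 0.32, adjusted p = 0.017), a call lost without HP lactation day 21 replicate 1 or day 150 replicate 6 (adjusted p = 0.086 to 0.09). It had -0.87 in HP pregnancy and -0.92 in control. Col6a2, which lies 85.2 kb from Col6a1 on chromosome 10, had -0.12, -0.35 and -0.57, with none past the threshold. Col14a1 fell in HP pregnancy (log2 change -0.56, SE 0.18, adjusted p = 0.03), a call lost without HP pregnancy day 21 replicate 2 or 3 or day 150 replicate 1 or 3 (adjusted p = 0.078 to 0.09). Its changes were -0.46 in HP lactation and -0.24 in control. The other kept Col14a1 probe set had -0.31, -0.075 and -0.47 and passed in no diet group (adjusted p = 0.29, 0.82 and 0.12).

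Decorin, lumican and biglycan are small leucine-rich proteoglycans that bind collagen fibrils and regulate their width. All 3 genes fell in each diet group. Lum had signals of 701, 1037 and 859 at day 150 and 1563, 1546 and 1574 at day 21 in HP pregnancy. The HP lactation arrays gave 368, 793 and 481 at day 150 and 1234, 1026 and 1230.4 at day 21. The control arrays gave 545, 544 and 1067 at day 150 and 1379, 1294 and 1136 at day 21. The ages of Lum did not overlap, though control day 150 replicate 3 came close to its day 21 group. It had log2 changes of -0.87 in HP pregnancy, -1.16 in HP lactation and -0.89 in control (adjusted p = 0.017, 0.0025 and 0.02). Those of Bgn were -0.75, -0.88 and -0.61 (adjusted p = 0.0085, 0.0026 and 0.036). The Dcn changes were -0.45, -0.50 and -0.53 (adjusted p = 0.03, 0.016 and 0.017).

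The proteoglycan calls were close to the threshold. Dcn lost its call without HP pregnancy day 21 replicate 1, 2 or 3 or day 150 replicate 1 (adjusted p = 0.053 to 0.16), without HP lactation day 21 replicate 1 or day 150 replicate 6 (adjusted p = 0.055 to 0.069) and without control day 21 replicate 1 or day 150 replicate 1 or 2 (adjusted p = 0.051 to 0.086). For Lum this held without HP pregnancy day 21 replicate 3 or day 150 replicate 1 (adjusted p = 0.053 to 0.079) and without control day 21 replicate 1 or 2 or day 150 replicate 1 or 2 (adjusted p = 0.057 to 0.1). For Bgn it held without HP pregnancy day 150 replicate 1 (adjusted p = 0.052) and without control day 21 replicate 1, 2 or 3 or day 150 replicate 1 or 2 (adjusted p = 0.057 to 0.12). Dcn and Lum are neighbours on chromosome 10, 47.3 kb apart.

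Sparc had the smallest adjusted p among the members in each diet group. Sparc encodes osteonectin, a secreted glycoprotein that binds collagen, and had signals of 491, 618 and 530.5 at day 150 and 3358, 4912 and 4772 at day 21 in HP pregnancy offspring. After HP lactation it had 571, 673 and 487 at day 150 and 5726, 4336 and 5128 at day 21. In control offspring they were 558, 623 and 1508 at day 150 and 5737, 4916 and 4331 at day 21. The ages lay far apart in every diet group, and control day 150 replicate 3 was again high for its group. Sparc fell 7.88-fold in HP pregnancy (log2 change -2.98, SE 0.27, adjusted p = 5.8e-07), 8.8-fold in HP lactation (log2 change -3.14, SE 0.27, adjusted p = 1.5e-07) and 6.15-fold in control (log2 change -2.62, SE 0.27, adjusted p = 2.6e-06). The other kept probe set of Sparc had -2.52, -2.60 and -2.08.

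Elastin (Eln), the core of elastic fibres, had signals of 53.4, 30 and 96.4 at day 150 and 249, 229 and 193 at day 21 in HP pregnancy. HP lactation offspring had 113, 106 and 23 at day 150 and 395, 209.7 and 286 at day 21. On the control arrays it read 56, 71.2 and 115 at day 150 and 374, 251 and 277 at day 21. The ages did not overlap, and 4 of the 9 values at day 150 lay under the filter level. Eln fell in all 3 (-2.05, -2.14 and -1.94, adjusted p = 0.0062, 0.0043 and 0.012), and the control call was lost without control day 150 replicate 1 (adjusted p = 0.053). Its HP lactation change was -1.39 without day 150 replicate 6, and with 50 added to every signal the changes in HP pregnancy and HP lactation were -1.36 and -1.46. Fstl1, a secreted follistatin-like glycoprotein, fell in each diet group, with log2 changes of -1.53 in HP pregnancy, -1.93 in HP lactation and -1.51 in control.

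Ecm1, a secreted glycoprotein that hepatocytes make, had signals of 619.9, 686 and 493 at day 150 and 1374, 1831 and 1725 at day 21 in HP pregnancy. Under HP lactation the values were 754, 662 and 628 at day 150 and 1822, 1624 and 1401 at day 21. Control signals were 681, 711 and 898 at day 150 and 1595, 1879.7 and 1513 at day 21. Its ages were well separated, and it fell 2.75-fold, 2.36-fold and 2.19-fold (adjusted p = 5.3e-06, 2e-05 and 0.0001). Postn, periostin, a matricellular protein of collagen assembly, had 524, 712 and 569 at day 150 and 984, 945 and 1131 at day 21 in HP pregnancy. In HP lactation offspring its signals were 228, 374 and 284 at day 150 and 1134, 844 and 996 at day 21. Control offspring had 317, 324 and 640.4 at day 150 and 1049.6, 731 and 711 at day 21. The day 150 arrays lay below the day 21 arrays each time, lowest in HP lactation. Postn had log2 changes of -0.77 in HP pregnancy, -1.76 in HP lactation and -1.02 in control (adjusted p = 0.027, 4e-05 and 0.0075), with the HP pregnancy call lost without HP pregnancy day 21 replicate 2 or 3 or day 150 replicate 1 or 3 (adjusted p = 0.054 to 0.1). Fn1, fibronectin, which hepatocytes release into plasma, ranged from 11751 to 17632 at day 150 and from 13769 to 19225 at day 21, with overlapping ages. The Fn1 changes were -0.20, 0.092 and -0.12 and did not pass. The other kept Fn1 probe set was at -1.01, -0.86 and -0.28 and passed in HP pregnancy and HP lactation (adjusted p = 0.0072 and 0.018), so the probe sets of this gene disagreed.

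Among the enzymes, Mmp2, a gelatinase that cleaves denatured and basement membrane collagen, fell in each diet group. It had signals of 98.5, 159 and 112 at day 150 and 334, 353 and 279 at day 21 in HP pregnancy. The HP lactation arrays gave 65.3, 171 and 166 at day 150 and 333, 341 and 271 at day 21. The control arrays gave 121, 136 and 167 at day 150 and 255, 298 and 316 at day 21. The ages of Mmp2 did not overlap. Its log2 changes of -1.41 in HP pregnancy, -1.35 in HP lactation and -1.04 in control had adjusted p = 0.002, 0.0025 and 0.019, and the control call was lost without control day 21 replicate 2 or 3 or day 150 replicate 1 or 2 (adjusted p = 0.057 to 0.07). Loxl1, an oxidase that cross-links elastin, fell in HP lactation (log2 change -2.96, SE 0.67, adjusted p = 0.0034), where it had 4.3, 63.2 and 12.8 at day 150 and 179, 79.9 and 115 at day 21. The ages did not overlap, and 2 of the 3 day 150 values were under the filter level, as were the means of all 3 day 150 groups. The size of this change is therefore loose: it was -2.05 without day 150 replicate 4, -3.99 without replicate 5, -2.36 with array weights and -1.22 with 50 added to every signal. Loxl1 had -1.35 in HP pregnancy (adjusted p = 0.16) and -1.69 in control (adjusted p = 0.09). Lox, its relative, lay under the filter. In the fit without a filter Lox fell in HP lactation (log2 change -1.81, SE 0.45, adjusted p = 0.0093) and control (log2 change -1.95, SE 0.45, adjusted p = 0.0084) and had -0.79 in HP pregnancy (adjusted p = 0.3).

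No metalloproteinase inhibitor fell on its chosen probe set. Timp3, an inhibitor that stays bound to the matrix, had signals of 579, 905 and 892 at day 150 and 428, 267 and 241 at day 21 in HP pregnancy offspring. After HP lactation it had 1004, 1041 and 464 at day 150 and 977, 488 and 408 at day 21. In control offspring they were 481, 644 and 662 at day 150 and 439.7, 349 and 457 at day 21. The day 150 arrays lay above the day 21 arrays in HP pregnancy and in control and overlapped them in HP lactation. Timp3 rose 2.57-fold in HP pregnancy (log2 change 1.36, SE 0.32, adjusted p = 0.0054) and had 0.44 in HP lactation and 0.52 in control (adjusted p = 0.34 and 0.3). The other kept Timp3 probe sets gave 0.79 and 0.47 in HP pregnancy (adjusted p = 0.098 and 0.58), -0.34 and -1.48 in HP lactation, and -0.078 and -0.60 in control. Its sign thus differed between probe sets in the other two diet groups. Timp2, a soluble inhibitor, had -0.23, -0.49 and -0.076, and its 2 other kept probe sets gave -0.60, -0.83 and -1.0 (adjusted p = 0.10, 0.025 and 0.013) and -0.61, -0.49 and -0.52. Timp1 lay under the filter, at 2.4 to 74.1 on all arrays.

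The receptors for platelet-derived growth factor, which mark stellate cells and fibroblasts, fell in all 3 diet groups on their chosen probe sets. Pdgfrb had signals of 446, 336 and 377 at day 150 and 582, 754 and 715 at day 21 in HP pregnancy offspring. HP lactation offspring had 298, 359 and 406 at day 150 and 715, 510.5 and 726 at day 21. On the control arrays it read 313, 414 and 397 at day 150 and 1095, 518 and 803 at day 21. The ages of Pdgfrb did not overlap. It had log2 changes of -0.82 in HP pregnancy, -0.87 in HP lactation and -1.05 in control (adjusted p = 0.013, 0.0086 and 0.0038), and the HP pregnancy call was lost without HP pregnancy day 21 replicate 2 or day 150 replicate 2 (adjusted p = 0.059 to 0.06). The other kept Pdgfrb probe set gave -1.11, -0.20 and -0.61 and passed in no diet group (adjusted p = 0.066, 0.78 and 0.36). Pdgfra had 231, 212 and 201 at day 150 and 664, 411 and 327 at day 21 in HP pregnancy. Under HP lactation the values were 184, 190.4 and 183 at day 150 and 472, 389 and 307 at day 21. Control signals were 145, 173 and 109 at day 150 and 429, 368 and 365 at day 21. It fell without overlap, with log2 changes of -1.06 in HP pregnancy, -1.05 in HP lactation and -1.46 in control (adjusted p = 0.0028, 0.0028 and 0.00028), and in control it was the member that kept its call with the 3'/5' ratios as covariates.

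Of the cytoskeletal genes, Acta2, alpha smooth muscle actin of activated stellate and smooth muscle cells, varied widely between arrays at day 21. It had signals of 322, 270.0 and 299.5 at day 150 and 551, 372 and 529 at day 21 in HP pregnancy offspring. In HP lactation offspring its signals were 346, 328 and 203 at day 150 and 1536, 480.1 and 939 at day 21. Control offspring had 275, 301 and 427 at day 150 and 1865, 1365 and 545 at day 21. The ages did not overlap, and the high values belonged to 2 control arrays and 2 HP lactation arrays of day 21. Acta2 fell in HP lactation (log2 change -1.64, SE 0.39, adjusted p = 0.0051) and control (log2 change -1.76, SE 0.39, adjusted p = 0.0047) and had -0.69 in HP pregnancy (adjusted p = 0.22). Tagln, transgelin, which binds smooth muscle actin, fell in the same pair of diet groups (-1.31 and -1.31), with calls lost without HP lactation day 21 replicate 1 or 3 or day 150 replicate 6 (adjusted p = 0.082 to 0.12) and without control day 21 replicate 1 or 2 or day 150 replicate 1 or 2 (adjusted p = 0.09 to 0.13). It had -1.0 in HP pregnancy (adjusted p = 0.081). Des, desmin, an intermediate filament of stellate and muscle cells, had -0.63, -0.35 and 0.26, each with an SE of 0.50, and passed in none. Vim, vimentin, had -0.36, -0.61 and -0.42 on the chosen probe set. Another Vim probe set gave -0.81, -1.22 and -1.02 (adjusted p = 0.051, 0.0048 and 0.023).

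The 2 members that mark resting stellate cells did not pass the test between ages. Reln, reelin, had signals of 3451, 4339 and 3848 at day 150 and 4970.4, 4514 and 4441 at day 21 in HP pregnancy offspring. The HP lactation arrays gave 2986, 3159 and 3258 at day 150 and 3765, 3143 and 3492 at day 21. The control arrays gave 3161, 2909.5 and 3999 at day 150 and 5139.6, 2983 and 3596 at day 21. The ages did not overlap in HP pregnancy and overlapped in HP lactation and control. Reln had log2 changes of -0.26 in HP pregnancy, -0.14 in HP lactation and -0.19 in control (adjusted p = 0.26, 0.56 and 0.45), with 95% intervals of -0.60 to 0.077, -0.48 to 0.20 and -0.53 to 0.15. Lrat had signals of 668, 814 and 908 at day 150 and 888, 771 and 962 at day 21 in HP pregnancy offspring. After HP lactation it had 531, 625 and 489 at day 150 and 502, 591 and 889 at day 21. In control offspring they were 409, 516 and 944 at day 150 and 793, 898 and 857 at day 21. Its ages overlapped in each diet group, in control through day 150 replicate 3 alone. Lrat had -0.14, -0.23 and -0.54 (adjusted p = 0.72, 0.52 and 0.14), and its intervals reached -1.05 in control. The other kept Lrat probe set had larger falls, -0.36, -0.30 and -1.02, and passed in no diet group (adjusted p = 0.55, 0.61 and 0.077).

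To compare age changes of single genes, the member with the highest mean signal in each role was set against Reln on the same array. The age change of the log2 ratio was averaged over the 3 diet groups and tested with an exact two-sided permutation of the ages within each diet (9 arrays at day 150 and 9 at day 21, 8000 arrangements, p adjusted over 9 ratios). The ratio to Reln changed by -2.10 for Col3a1 (adjusted p = 0.0011), -0.71 for Pdgfrb (0.0015), -0.41 for Col18a1 (0.0017), -0.29 for Dcn (0.0036) and -0.22 for Col14a1 (0.013). It changed by 0.97 for Timp3 (0.0037). The other kept Timp3 probe sets had negative age changes in HP lactation and control, so this rise depends on the probe set. Loxl1, whose day 150 means lay under the filter level, is not given. For Vim the ratio changed by -0.26 (0.13) and for Fn1 by 0.12 (0.18), neither past the threshold. Each ratio used 1 gene of its role and the chosen probe sets alone. That gene need not follow its role: 5 of the 6 glycoprotein and elastic fibre genes tested fell in each diet group, but Fn1 did not. Acta2 and Tagln fell in HP lactation and control, where Vim did not pass. Other kept probe sets of Vim and Fn1 had larger falls, and those of Pdgfrb, Dcn and Col14a1 passed in no diet group. The raw p of 0.00025 for Col3a1 is the smallest these arrangements allow. The ratios describe unequal change of signal between probe sets, not which gene of a pair moved. Permuting the ages cannot separate age from the 3'/5' ratios, so unequal change of the transcripts is not shown. Reln and the other genes were taken with the changes above already known, so these p-values add no independent support.

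Other kept probe sets of the falling genes had the same sign, but not all passed the threshold. Of the members that fell, 13 in each diet group had another kept probe set that names them alone, and all 14 such probe sets had negative age changes in each of the 3. Those of Dcn, Pdgfrb and Col14a1 and a further Bgn set passed in no diet group (adjusted p = 0.17 to 0.43, 0.066 to 0.78, 0.12 to 0.82 and 0.13 to 0.23). Probe sets under the filter were not counted, and a Sparc set there had 0.93 in HP pregnancy and 0.53 in control. Without a filter on low signal, 21, 27 and 25 of 40 members fell in HP pregnancy, HP lactation and control, against 6.05%, 6.24% and 4.16% of all genes. Col15a1, Mfap4 and Timp1 did not pass there.

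Genes that modify and process collagen went both ways. Of 16 tested genes of collagen maturation, 1 rose and 6 fell in HP pregnancy, 2 and 2 in HP lactation, and 2 and 2 in control (medians -0.16, 0.17 and -0.06). Over all genes, 12.1% rose and 11.5% fell in HP pregnancy, 14.1% and 11.6% in HP lactation, and 9.7% and 8.08% in control. These shares stand beside the counts of every list below, and no list was tested against them. Pcolce, the enhancer of procollagen cleavage, fell in all 3 (-0.99, -0.68 and -0.76). P3h1 and Crtap, partners in prolyl hydroxylation, fell in HP pregnancy (-1.34 and -0.57), Crtap also in HP lactation (-0.77), and Bmp1, which removes the procollagen C-propeptide, fell in HP pregnancy (-0.80). P4ha1, a catalytic subunit of prolyl hydroxylase, went the other way and rose in HP lactation (0.74) and control (0.92), as did P4ha2 in control (0.97).

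Of 18 further matrix proteins tested, 1 rose and 4 fell in HP pregnancy, 2 and 4 in HP lactation, and 2 and 4 in control (medians -0.10, -0.22 and -0.26). The same 4 fell each time. Mgp, an inhibitor of calcification, had signals of 141 at day 150 and 284 at day 21 in HP pregnancy, 113 and 478 in HP lactation and 158 and 467 in control (group means, log2 changes -1.01, -2.08 and -1.56). Igfbp7 fell by about the same amount in each (-1.03, -0.97 and -0.98), and Emilin1, of elastic fibres, and Tgfbi, a collagen-binding protein, fell too. Efemp1, a fibulin of the extracellular matrix, rose in all 3 (0.79, 0.99 and 0.93), and Col5a3, another type V chain, rose in HP lactation (1.06) and control (1.24), opposite to Col5a1 and Col5a2.

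In transforming growth factor beta signalling, of 14 genes tested, 2 rose and 2 fell in HP pregnancy, 1 and 2 in HP lactation, and 1 and 2 in control (medians -0.084, -0.27 and -0.18). Smad3, which carries the signal to the nucleus, rose in all 3 (0.55, 0.70 and 0.59). Bambi, a decoy receptor, fell in HP pregnancy (-0.86) and control (-0.70), and Tgfbr2, the ligand-binding receptor, fell in HP lactation (-0.72). Of 9 integrins, the receptors for matrix, 1 rose and 1 fell in HP pregnancy, 1 and 2 in HP lactation, and 1 and 1 in control (medians -0.10, -0.23 and -0.12). Itgav rose in all 3 (0.55, 0.50 and 0.86), and Itga8, found on stellate cells, fell in HP pregnancy (-0.65) and HP lactation (-0.65). Of 5 further matrix proteases, 0 rose and 1 fell in HP pregnancy, 0 and 2 in HP lactation, and 0 and 1 in control (medians -0.45, -0.68 and -0.45). Mmp14, the membrane enzyme that activates Mmp2, fell in all 3 (-1.03, -0.76 and -0.63).

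Further stellate cell markers went both ways, and the shares of all genes given for collagen maturation apply here too. Of 13 tested, 1 rose and 5 fell in HP pregnancy, 2 and 4 in HP lactation, and 2 and 3 in control (medians -0.21, -0.21 and -0.33). Hand2, a transcription factor of stellate cells, fell each time (-1.23, -1.65 and -1.41), and so did Ngfr, a neurotrophin receptor (-1.21, -1.06 and -1.07), and Angptl6 (-1.0, -0.71 and -0.70). Steap4, a metalloreductase, rose each time (1.43, 1.47 and 1.51), and hepatocytes express it as well. The summed signal of the 15 markers was 20408 to 30703 at day 150 and 19625 to 21207 at day 21 in HP pregnancy, 18976 to 21488 and 15262 to 18083 in HP lactation, and 21438 to 23220.1 and 15608 to 20257 in control. The sums of the ages overlapped in HP pregnancy and were higher at day 150 in the other diet groups. They lean on the brightest probe sets, among them Steap4 (mean signal 2687), while the medians of the list were negative.

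Markers of other liver cells were counted beside the members, and their part in the members' change was not tested. Their counts are to be read beside the shares of all genes given for collagen maturation. Of 13 markers of Kupffer cells, the resident macrophages, 3 rose and 1 fell in HP pregnancy, 5 and 1 in HP lactation, and 2 and 0 in control. Cd5l (0.80, 1.21 and 1.23) and Clec4f (0.70, 0.83 and 0.58) rose in all 3, and their summed list was 25703 to 28229 at day 150 and 18597 to 24151 at day 21 in HP pregnancy, 19600.5 to 29921 and 15361 to 20037 in HP lactation, and 21610.0 to 28936 and 17001 to 19199 in control. Of 11 sinusoidal endothelial markers, 0 rose and 1 fell in HP pregnancy, 1 and 1 in HP lactation, and 0 and 1 in control, the fall being that of Lyve1 (-1.15, -1.46 and -1.55), and the sums were 18547 to 22924 at day 150 and 16679 to 20564 at day 21 in HP pregnancy, 14672 to 18361 and 13513 to 15087 in HP lactation, and 14566 to 18348 and 15019.7 to 16766 in control. Of 10 hepatocyte markers, 1 rose and 1 fell in HP pregnancy, 1 and 0 in HP lactation, and 1 and 0 in control, the rise being that of Hnf4a (0.52, 0.49 and 0.43), and the sums were 229819 to 280219.7 at day 150 and 196946 to 251292 at day 21 in HP pregnancy, 240666 to 383428 and 201544 to 267060.0 in HP lactation, and 249899.6 to 314102 and 271212 to 284969 in control.

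Of 8 proliferation markers tested, 0 rose and 1 fell in HP pregnancy, 0 and 4 in HP lactation, and 0 and 1 in control. Pcna, the sliding clamp of DNA replication, fell in all 3 (-0.77, -1.09 and -0.73), and the sums of 12 such genes were 2336 to 2676 at day 150 and 3303 to 4343 at day 21 in HP pregnancy, 2495 to 2881 and 4134 to 8943 in HP lactation, and 2496 to 4007 and 4036 to 4644 in control. Portal fibroblast and smooth muscle markers were mostly low: of 10, 8 lay under the filter level at day 150 and 7 at day 21 in HP pregnancy, 8 and 4 in HP lactation, and 7 and 3 in control. Mylk, myosin light chain kinase, and Entpd2 were the brightest of them (mean signals 1382 and 147), none of the 2 tested passed, and the sums were 1548 to 1844 at day 150 and 2031 to 2275 at day 21 in HP pregnancy, 1547 to 1853 and 1624 to 2284 in HP lactation, and 1488 to 1660.1 and 1722 to 2195 in control. Cholangiocyte, lymphocyte and mesothelial lists had 2, 2 and 1 genes over the filter, none of which passed. Their sums over all groups reached at most 425, 420.5 and 329. Of 2 erythroid markers, Alas2 rose in HP pregnancy (1.83) and HP lactation (1.29), and Klf1 fell in control (-0.92). The sums of 5 erythroid genes were 777 to 1358 at day 150 and 377 to 466 at day 21 in HP pregnancy, 597 to 1069.5 and 459.8 to 520.1 in HP lactation, and 459 to 859 and 414 to 648 in control.

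**Figure D3:**
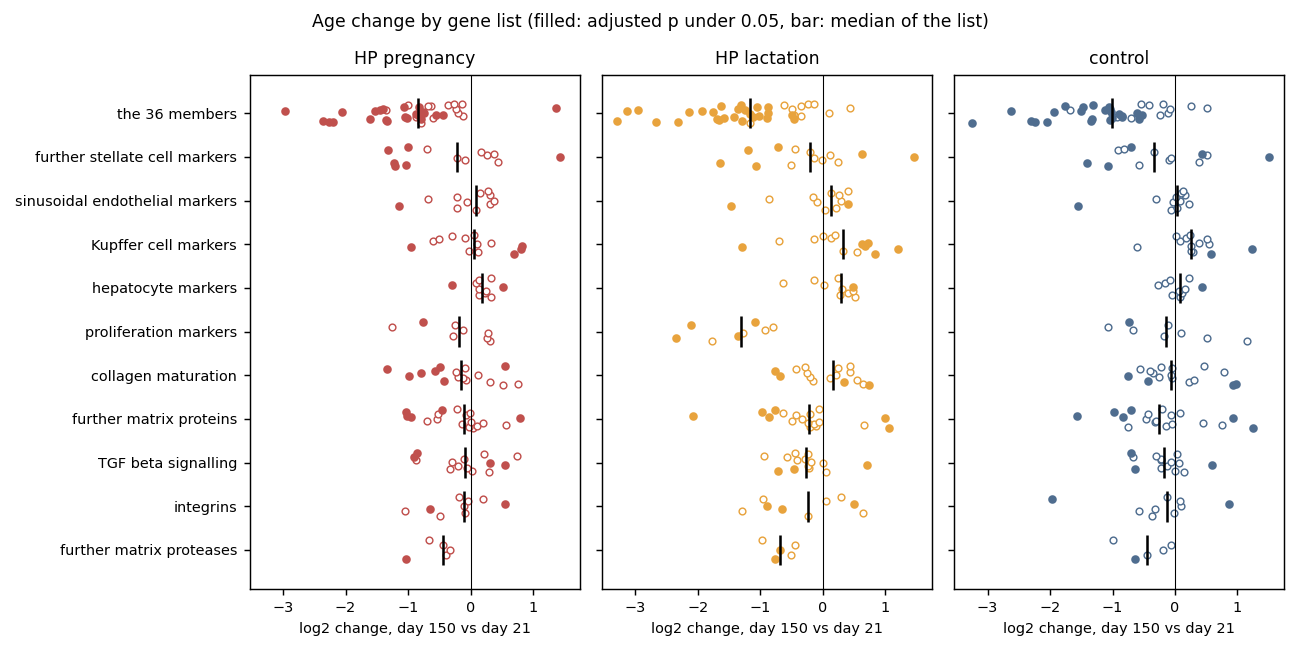
Log2 change between day 150 and day 21 (x axis) of each tested gene of the 36 members and of the 10 other gene lists with 5 or more tested genes (rows), for HP pregnancy, HP lactation and control offspring. Filled points passed an adjusted p of 0.05 and bars mark the median of a list. The members' medians of -0.85, -1.16 and -1.01 lie left of those of the lists shown in HP pregnancy and control, and right of the proliferation markers' -1.31 in HP lactation.

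Between the maternal diets, no member passed the adjusted threshold in limma at either age. At day 21, 0 of 36 members were called after HP pregnancy against control, where 0% of all genes were, and 2 had an unadjusted p under 0.05, where 9.98% of all genes did. The median change was -0.03, beside 0.0087 over all genes. After HP lactation 0 were called, against 0.172% of all genes, and 1 had an unadjusted p under 0.05, against 14.3%, with a median of -0.008. Both comparisons share the 3 control arrays of day 21. The median SE of a member's change was 0.25.

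The members with an unadjusted p under 0.05 at day 21 after HP pregnancy were Acta2 and Tagln, both of the contractile cytoskeleton. Acta2 had 551, 372 and 529 in HP pregnancy and 1865, 1365 and 545 in control, so the lowest control array overlapped the HP pregnancy arrays (log2 change -1.23, 95% interval -2.05 to -0.41, adjusted p = 0.32). Tagln had 264, 225 and 329 in HP pregnancy and 607, 679.9 and 313 in control (log2 change -0.91, adjusted p = 0.48). In HP lactation offspring the same genes were at 1536, 480.1 and 939 and 651, 264 and 620.0, with changes of -0.33 and -0.093 from control. In both, control replicate 3 was the low control array. After HP lactation the member was Nid1, at 1598, 1375 and 1885 in HP lactation and 1495, 1002 and 1233 in control (log2 change 0.39, adjusted p = 0.35). For the fibrillar collagens the intervals were wide: Col3a1 had -0.24 after HP pregnancy (95% interval -0.96 to 0.48) and -0.26 after HP lactation (-0.98 to 0.46).

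At day 150 after HP pregnancy, 0 members were called, against 2.63% of all genes, and 8 had an unadjusted p under 0.05 (4 higher and 4 lower), near the 20% of all genes. The smallest adjusted p was that of Col18a1, with 4259, 4254 and 4021 in HP pregnancy and 5514, 5295 and 5515 in control. Its groups did not overlap (log2 change -0.38, 95% interval -0.62 to -0.14, adjusted p = 0.079). Col4a2, another basement membrane chain, also lay without overlap below control, at 192, 229.7 and 205 in HP pregnancy and 314, 303 and 293 in control (log2 change -0.54, adjusted p = 0.14). Its partner Col4a1 had -0.0097 (95% interval -0.43 to 0.41). Lamb1 lay above control, at 169, 192 and 122 in HP pregnancy and 91.2, 81.6 and 120.0 in control (log2 change 0.72, adjusted p = 0.096), and so did Pdgfra, at 231, 212 and 201 and 145, 173 and 109 (log2 change 0.62, adjusted p = 0.14). The share of members whose arrays did not overlap was 2 of 36 below and 2 of 36 above, beside 12.9% and 15.1% of all genes.

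The other members with an unadjusted p under 0.05 after HP pregnancy at day 150 overlapped between groups. They were Sparc (-0.57), Ecm1 (-0.35), Postn (0.56) and Col1a1 (1.55). With array weights Col18a1 and Lamb1 passed the threshold and with the compared arrays alone Col18a1 did. Of the other matrix and signalling lists 3 genes passed in this comparison, named here after their values were seen. Bmp1 fell to a mean of 584 in HP pregnancy, against 866 in control (adjusted p = 0.029), and Mmp14 to 359.5, against 569.8 (adjusted p = 0.038). Smad4, the shared partner of the receptor-activated Smads, rose (log2 change 0.41, adjusted p = 0.049). Against HP lactation at day 150, Bmp1 and Mmp14 fell as well (-0.56 and -0.70, adjusted p = 0.041 and 0.048), in a comparison that shares the HP pregnancy arrays.

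After HP lactation at day 150, 0 members were called, against 0.00908% of all genes, and 3 had an unadjusted p under 0.05, beside 7.72% of all genes. The changes leaned downward: 29 of 36 were negative, with a median of -0.18 beside 0.0024 over all genes. Col3a1 had 899, 657 and 594 in HP lactation and 866, 952 and 2642 in control, where the groups overlapped and replicate 3 was the high control array (log2 change -0.88, 95% interval -1.60 to -0.16, adjusted p = 0.54). Without that array the median of the members was -0.034. Loxl1 had -1.50 (adjusted p = 0.61) and Col1a1 1.86 (adjusted p = 0.52), both with signals near or under the filter level.

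**Figure D4:**
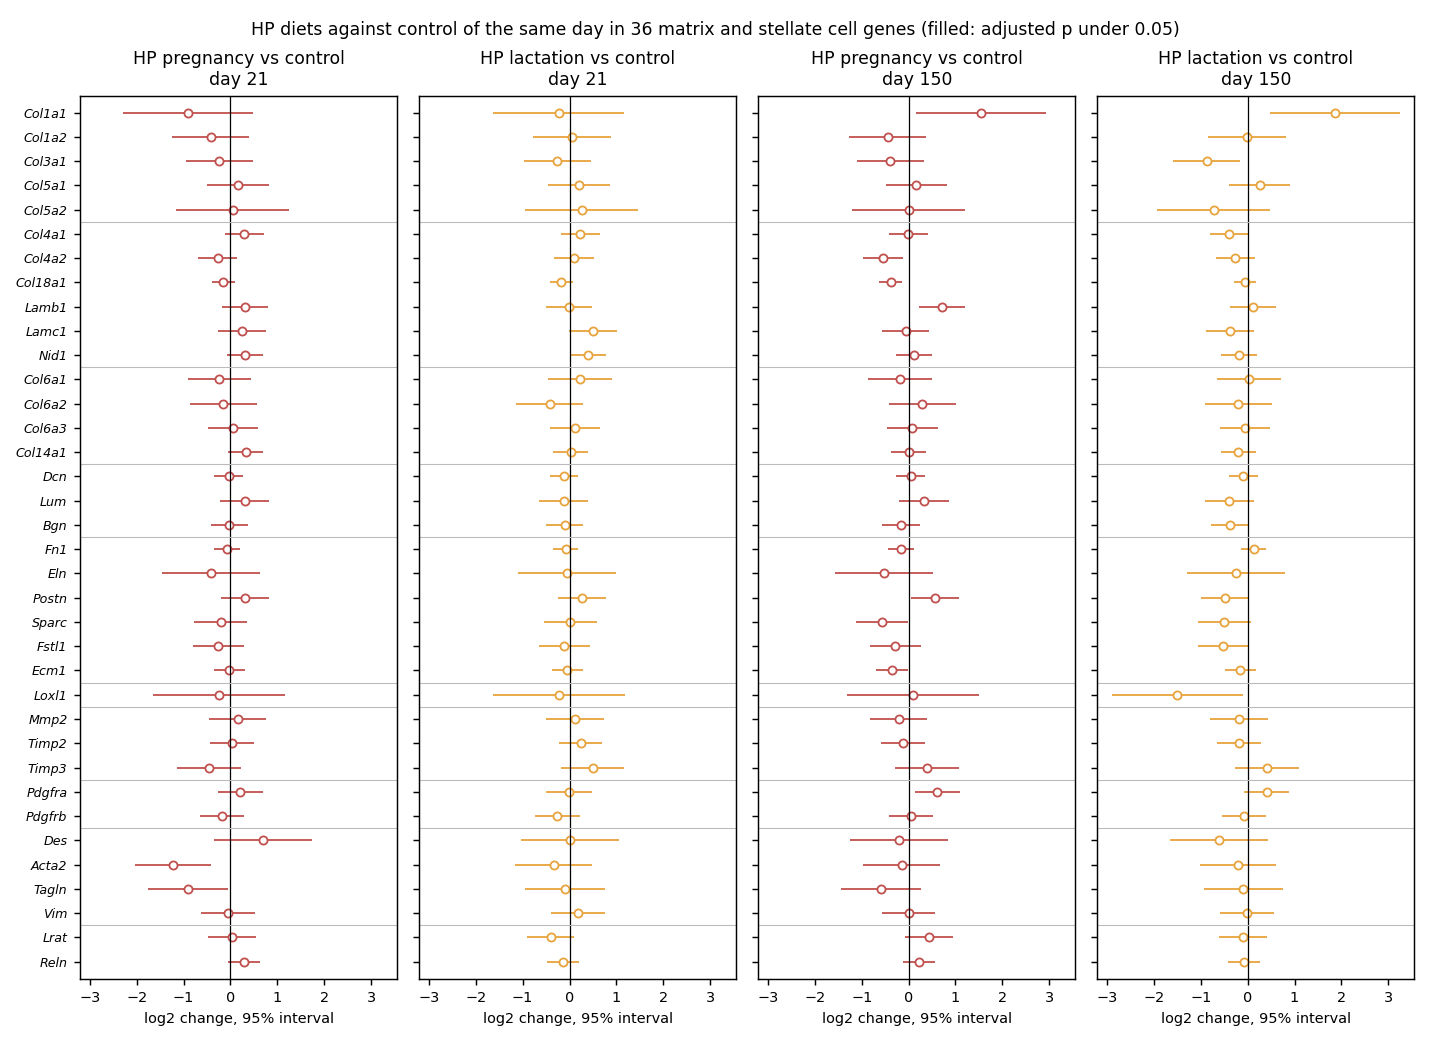
Log2 change from control of the same day (x axis, points with 95% intervals) of the 36 members in rows grouped by role, for HP pregnancy and HP lactation at day 21 and at day 150. All points are open, as none passed an adjusted p of 0.05. At day 150 after HP lactation 29 of 36 points lie left of 0.

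The HP groups were also compared with each other. At day 21, 0 members were called, against 1.28% of all genes, and 3 had an unadjusted p under 0.05, against 14.9%. They were Timp3 (-0.94), Acta2 (-0.89) and Reln (0.42), the last with 4970.4, 4514 and 4441 in HP pregnancy and 3765, 3143 and 3492 in HP lactation and no overlap. Tgfbr2, the receptor of transforming growth factor beta, was the only gene of the other lists to pass at day 21 and is named after its value was seen, with a mean of 842 in HP pregnancy and 1446 in HP lactation (log2 change -0.78, adjusted p = 0.0499). At day 150, 0 members were called, against 0.717% of all genes, and 7 had an unadjusted p under 0.05, against 17.4%. Postn came closest, with 524, 712 and 569 in HP pregnancy and 228, 374 and 284 in HP lactation. The groups did not overlap, and its mean was 2.06-fold higher in HP pregnancy (log2 change 1.04, SE 0.24, adjusted p = 0.0504). Postn passed with a stricter filter, with quantile normalization and with equal 75th percentiles.

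Lum had 701, 1037 and 859 in HP pregnancy and 368, 793 and 481 in HP lactation at day 150, with overlap (log2 change 0.72, adjusted p = 0.15), and Lrat had 668, 814 and 908 and 531, 625 and 489 without overlap (log2 change 0.53, adjusted p = 0.26). The other members with an unadjusted p under 0.05 were Lamb1 (0.61), Loxl1 (1.59), Col18a1 (-0.33) and Fn1 (-0.29). Without HP lactation day 150 replicate 5 the count of called members was 4 (Col18a1, Lum, Postn and Loxl1).

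Whether maternal diet altered the age change was tested as a difference of differences. For HP pregnancy against control 0 members passed in limma, with 1 at an unadjusted p under 0.05 (0.0182% of all genes called and 3.87% at an unadjusted p under 0.05). For HP lactation against control 0 passed as well, with 5 at an unadjusted p under 0.05 (0.0182% and 5.1% of all genes). Those 5 were Col1a1 (2.09), Lamc1 (-0.87), Postn (-0.75), Col4a1 (-0.62) and Nid1 (-0.57), each with adjusted p = 0.93. The median SE of such a difference was 0.36. For Sparc the difference was -0.36 after HP pregnancy (95% interval -1.15 to 0.43) and -0.52 after HP lactation (-1.30 to 0.27). Genes called between ages in 1 diet group and not in another, such as Acta2 and Timp3, are therefore not shown to differ between diets (Acta2 1.08, adjusted p = 1, and Timp3 0.85, adjusted p = 1, for HP pregnancy against control).

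Members moved together from array to array in some of the groups. In control day 150 replicate 3, 31 of 36 members were at their highest of the group, where 35.6% of all genes were. The figure for control day 21 replicate 1 was 30 of 36 (35.1% of all genes) and for HP lactation day 21 replicate 1 29 of 36 (38.3%). In HP pregnancy at day 21 it was 9, 13 and 14 on the 3 arrays (36.3%, 32.6% and 31.2%). At day 150 it was 15, 19 and 2 in HP pregnancy (35.9%, 29.8% and 34.4%) and 12, 18 and 6 in HP lactation (37.2%, 34.1% and 28.8%). Control day 150 replicate 3 had a median member deviation of 0.38 from its group mean, control day 21 replicate 1 had 0.30, and HP lactation day 21 replicate 1 had 0.27, beside 0.011, 0.02 and 0.017 over all genes. Measured from the 18-array means, the median of the members lay between -0.77 and -0.063 on the 9 arrays of day 150 and between 0.26 and 0.85 on the 9 arrays of day 21.

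**Figure D5:**
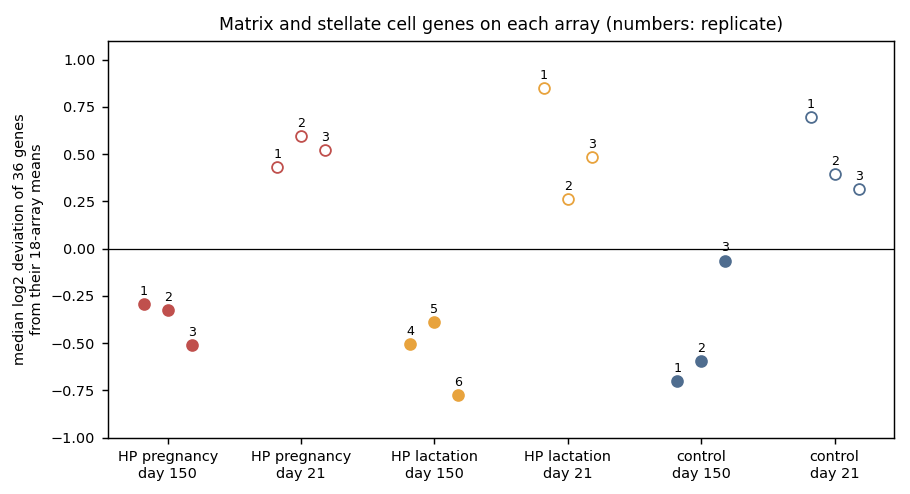
Median log2 deviation of the 36 members from their means over 18 arrays (y axis), 1 point per array numbered by replicate, for HP pregnancy, HP lactation and control offspring at day 150 (filled) and day 21 (open). All arrays of day 150 lie under 0 and all arrays of day 21 over 0, with control day 150 replicate 3 nearest to 0 at -0.063.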

How the data were processed

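Liver RNA of 18 pools was measured on 1-colour Affymetrix arrays, 3 arrays in each of 6 groups. The deposited values are signal intensities on a linear scale, computed with MAS5 in GCOS 1.4, per the submitters' processing notes. A trimmed mean over the probe sets of an array, leaving out 2% at each end, was nearly the same on every array of the deposited intensity table. The number of arrays limits the precision. Log2 intensities of any pair of arrays correlated by at most 0.932.

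Probe sets were named from the platform annotation. The 45101 probe sets include 64 controls. A single gene symbol stood beside 34958 of them, more than 1 beside 932 and none beside 9211, and 34754 had their symbol updated or kept by a match of the gene ID to RefSeq (GRCm38.p6). Probe sets whose mean log2 intensity lay at or above the median of all non-control probe sets (5.85, a signal of 57.5) were kept, which left 22519. Those naming 1 gene were reduced to the brightest per gene, so 11018 genes were tested.

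Log2 intensities, with nothing added, were fitted with limma 3.58.1 in R 4.3.3 (lmFit, contrasts.fit and eBayes with a trend). All 18 arrays entered 1 fit of 6 group means, with 12 residual and 6.47 prior degrees of freedom, and 11 contrasts were taken. P-values were adjusted by Benjamini-Hochberg over all genes at a threshold of 0.05, and the code was tested on simulated data. Standard errors and intervals come from that fit, and folds are ratios of geometric means. Ratios to Reln were tested by exact permutation. Figures were drawn with matplotlib 3.10.9 in Python 3.11.15. Start regions and neighbouring genes were read from RefSeq tables of GRCm38.p6, and the array build is not given in the sources used here.

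All 41 listed genes could be named. Of the other lists, genes past the threshold in a comparison with a called member could be named, at most 4 a list and comparison, and the 3 brightest of each marker list. Bmp1, Mmp14, Smad4 and, at day 21, Tgfbr2 passed between diets, where no member was called, and were named outside this rule after their values were seen. The members and all lists were chosen with earlier results of these data known.

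The alternatives were no filter, a 70th percentile filter, quantile normalization, scaling to equal 75th percentiles, no trend, array weights, adding 50 before the log, testing every probe set kept, only the compared arrays, replicate number as a block, both 3'/5' ratios as covariates, leaving out the 2 arrays with Xist signal, and leaving out each array. Arrays with the same replicate number did not deviate together (30 pairs, correlations of -0.11 to 0.10 with a median of -0.025, 1 of them over 0.1), and HP lactation at day 150 carries the numbers 4 to 6, so the numbers were not taken to pair samples.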

Additional observations from a re-analysis of the deposited data

How the results depend on the processing

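The counts of called members moved most with the covariates for RNA quality. With the 3'/5' control ratios as covariates the counts between ages were 0 in HP pregnancy, 0 in HP lactation and 1 in control, against 23, 26 and 24 without them, and 72 of 73 called changes missed the threshold with the same sign. Leaving out single arrays gave 17 to 22 called members in HP pregnancy, 23 to 28 in HP lactation and 17 to 25 in control. In HP pregnancy against HP lactation at day 150, where 0 were called, the count was 1 with the 70th percentile filter, with quantile normalization and with equal 75th percentiles, and 0 to 4 when single arrays were left out. In HP pregnancy against control at day 150, where 0 were called, it was 2 with array weights and 1 with only the compared arrays. The cause of these shifts was not tested. Every other diet comparison and both differences of age changes stayed at 0 in each alternative run. With the replicate number as a block the counts were 23 in HP pregnancy and 26 in control between ages, and 0 elsewhere. The block could not be fitted where HP lactation at day 150 was compared, because its numbers are 4 to 6. Of the 73 called changes, 5 missed the threshold with only the compared arrays, 3 without the trend, 2 with array weights, 2 without the Xist arrays, 2 of the 47 tested with the replicate block (Dcn and Col14a1 in HP pregnancy), 1 with equal 75th percentiles and 1 without a filter. None did with quantile normalization, with 50 added or with every kept probe set, and none of the 73 turned its sign. With 3 pools a group, the median standard error between diets was 0.25 on the log2 scale, so small diet differences were not detectable here, and signals near the filter level gave wider errors.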
